A study of Homo sapiens with 6 samples.

Results

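The genes described here are the cytosolic HSP70 and HSP110 chaperones of KYSE150, an established cell line from a human squamous carcinoma of the esophagus: HSPA1A, HSPA1B, HSPA1L, HSPA2, HSPA4, HSPA4L, HSPA8, HSPA13, HSPA14 and HSPH1, 10 of the 67140 genes in the deposited count table. They were taken by symbol. The family was chosen by the fold changes of HSPA1A, HSPA1B and HSPA8, which had already been seen to be higher in the shAC007128.1 samples of this same table, so the differences between groups given below describe the members and are given with no p. Where a member is said to be called, this only places it by the limits applied to the whole table and is no evidence for the difference that led to its choice. The study asked how the transcriptome of these cells differs when the long noncoding RNA AC007128.1 is targeted. KYSE150 cells carrying a control short hairpin RNA (shCtrl, 3 samples) were compared with KYSE150 cells carrying 1 short hairpin RNA against AC007128.1 (shAC007128.1, 3 samples). Both groups were grown in RPMI medium with fetal bovine serum, and poly-A RNA was sequenced. The study's methods describe stable lines made with lentivirus and puromycin, whereas the labels describe transfection, and neither says that the 3 samples of a group were separate cultures, so the spread between samples may be technical. With 1 hairpin and 1 control, an effect of losing AC007128.1 and another effect of the hairpin cannot be told apart. HSPA13 is placed by textbook knowledge in the microsomal fraction rather than the cytosol, and it is kept here because the list names it.

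HSP70 proteins bind unfolded stretches of other proteins and release them in a cycle of ATP binding and hydrolysis. J-domain proteins deliver clients and start hydrolysis, and nucleotide exchange factors, among them the HSP110 proteins, reset the chaperone. HSPA8 is the constitutive form that most cells use at all times, while HSPA1A and HSPA1B are the forms classically induced by heat and by misfolded protein in the cytosol through the transcription factor HSF1, which binds heat shock elements, inverted repeats of the letters GAA and TTC, in promoters. Tumour cells often carry high levels of these chaperones.

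Depth was 55764405 to 78610457 counts per sample, at which 3 counts, taken as the smallest detectable level, equal 0.0373 to 0.0546 CPM (counts scaled to a common depth by TMM). The 19254 genes with enough counts went into edgeR's quasi-likelihood test. A call needed both an adjusted p (Benjamini-Hochberg) no larger than 0.05 and a change to 2-fold or beyond, that is, 1 on the log2 scale. The targeted gene AC007128.1 had 69, 33 and 53 counts in shCtrl replicates 1, 2 and 3 and 18, 37 and 15 in the shAC007128.1 replicates (0.711 ± 0.273 against 0.417 ± 0.224 CPM, SD, n = 3). The groups overlapped, and the fitted log2 fold change was -0.77 (SE 0.51, adjusted p = 0.271, edgeR's quasi-likelihood test). A two-sided exact permutation test gave p = 0.2, but 3 against 3 samples cannot go below 0.1, so this test cannot decide on the knockdown. The study itself reports, by qPCR, a reduced AC007128.1 level with the hairpin, which is another measure than these counts. All 8 squamous epithelial markers were detected, with a summed level of 1666 to 1728 CPM in shCtrl and 2480 to 2893 CPM in shAC007128.1 (3 called higher, 1 lower). Markers of immune cells summed to 0.531 to 1.22 CPM over all samples, endothelial markers to 0.302 to 3.11 CPM and fibroblast markers to 14.1 to 19.0 CPM, almost all COL1A1. The part of the marker differences in the results below was not tested.

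The stretches just upstream of the RefSeq transcript starts of 4 members are printed below (GRCh38.p14, 5′ to 3′ on the gene's strand). These members had the largest differences between groups, apart from HSPA2 with its few counts. They also differ in exact matches to the letters of the element that HSF1 is known to bind. Elements with a mismatched letter were not searched. Capitals mark the letters GAANNTTC or TTCNNGAA (2 units) or, where these overlap, GAANNTTCNNGAA or TTCNNGAANNTTC (3 units), searched on both strands. The stretches are chr6:31815393-31815542 (plus strand) for HSPA1A, chr6:31827588-31827737 (plus) for HSPA1B, chr11:123062137-123062386 (minus) for HSPA8 and chr13:31162389-31162538 (minus) for HSPH1.
HSPA1A: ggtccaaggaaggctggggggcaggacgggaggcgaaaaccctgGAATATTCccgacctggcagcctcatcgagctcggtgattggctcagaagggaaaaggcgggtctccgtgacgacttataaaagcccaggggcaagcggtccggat
HSPA1B: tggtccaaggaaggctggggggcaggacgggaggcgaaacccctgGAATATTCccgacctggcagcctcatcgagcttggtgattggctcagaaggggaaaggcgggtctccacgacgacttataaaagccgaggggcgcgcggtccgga
HSPA8: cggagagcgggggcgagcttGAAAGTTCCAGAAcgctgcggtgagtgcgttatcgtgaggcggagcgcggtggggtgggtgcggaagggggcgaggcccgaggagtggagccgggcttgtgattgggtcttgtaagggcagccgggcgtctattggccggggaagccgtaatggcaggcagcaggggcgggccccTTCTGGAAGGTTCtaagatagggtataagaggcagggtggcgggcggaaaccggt
HSPH1: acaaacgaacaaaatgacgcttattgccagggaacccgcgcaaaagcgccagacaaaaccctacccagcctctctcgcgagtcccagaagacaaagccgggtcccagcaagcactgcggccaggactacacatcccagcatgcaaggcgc

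HSPA1A and HSPA1B carried the same letters of 1 element of 2 units at nearly the same place, with the first base at -106 and -105 from the transcript start. HSPA8 carried 2 elements of 3 units, starting at -230 and -55. HSPH1 had no match in its window. Over the promoter windows of all members, 9 of the 10 genes had a window (HSPA14 had none). Of the 9, 5 held an element of 2 units, against 13.5% of 35097 RefSeq promoters. Only 1 of the 9 (HSPA8) held one of 3 units, against 0.49%. Here and for the other gene lists below, a gene counts if any of its windows matches. The shares over all promoters are per window, so the 2 measures differ. The match of HSPA1L, at -161, is made of the same bases as that of HSPA1A (chr6:31815437-31815444), since these neighbours are transcribed away from each other across a shared promoter. HSPA4L held a match at -170 in the second of 3 annotated starts, and HSPA2, HSPA4 and HSPA13 held none. A match of letters is a description of the window, and binding was not measured. Among the other genes of the heat shock response listed below, 6 of 9 with a window held an element of 2 units and 5 one of 3 units. For the J-domain partners these were 5 and 2 of 11. For the exchange factors and tail-binding partners they were 2 and 0 of 6. The HSP70 relatives outside the list of members, most of them lower in shAC007128.1, had 2 and 1 of 5. Whether the element goes with the differences was not tested.

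**Figure D1:**
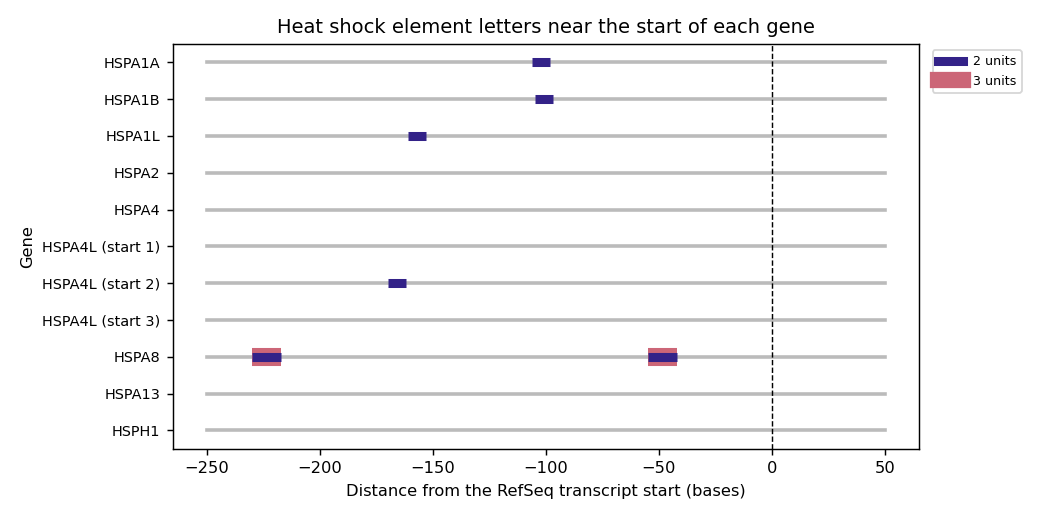
Position of the heat shock element letters in the RefSeq promoter windows of the family, in bases from the transcript start (dashed line), with 1 row for each annotated start. Dark bars mark 2 units and pale red bars 3 units, and HSPA8 is the only member with 3 units, at -230 and -55.

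All 10 members passed the filter. 5 of 10 members were called higher in shAC007128.1 (HSPA1A, HSPA1B, HSPA2, HSPA8 and HSPH1), where 5.57% of all genes tested were called higher, and 0 of 10 were called lower, where 10.1% of all genes were. All 10 log2 fold changes were positive, with a median of 1.36 against -0.02 over all genes tested. In 9 of 10 members every shAC007128.1 sample stood above every shCtrl sample, as in 27% of all genes tested. Since these differences were in view when the family was chosen, nothing is read from these counts. HSPH1, at a log2 fold change of 1.76, was the called member nearest to the limit, and HSPA14, at 0.96, was the nearest below it. In bulk RNA, more cells making a transcript and more transcript per cell cannot be told apart.

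**Figure D2:**
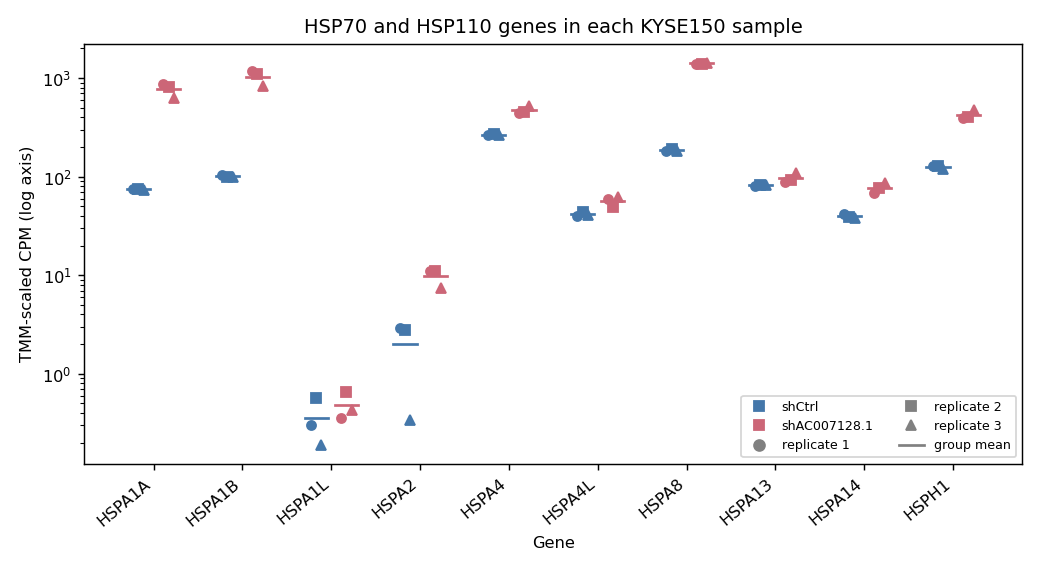
TMM-scaled CPM of the 10 members in each of the 6 samples on a log axis, with shCtrl in blue, shAC007128.1 in red, a symbol for each replicate and a bar at each group mean. HSPA1L is the only member whose groups overlap, and HSPA2 in shCtrl replicate 3 sits at 0.339 CPM, below the 2.90 and 2.79 CPM of replicates 1 and 2.

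The inducible pair lay close together on chromosome 6 in the major histocompatibility complex class III region, HSPA1A (ENSG00000204389) at chr6:31815543-31817946 and HSPA1B (ENSG00000204388) at chr6:31827738-31830254 (hg38, plus strand), each with 1 exon. HSPA1A stood at 75.8, 75.2 and 73.4 CPM in shCtrl replicates 1, 2 and 3 and at 871, 812 and 629 CPM in the shAC007128.1 replicates, 10.3-fold higher by group means (log2 fold change 3.37, SE 0.13). HSPA1B stood at 104, 99.9 and 98.6 CPM against 1172, 1095 and 838 CPM, also 10.3-fold higher (3.36, SE 0.13). In both genes the shCtrl samples lay within a few CPM of each other, and shAC007128.1 replicate 3 was the lowest of its group while still far above shCtrl. The pair cannot be treated as separate measurements. Of the 2301 stretches of 100 bases in the HSPA1A transcript, 1666 (72.4%) also occur in HSPA1B, and the sources used here do not say how reads that fit both were assigned. HSPA1A had 0.728 to 0.752 counts for each HSPA1B count in all 6 samples, so the ratio within a sample was the same in both groups to within its spread (0.741 ± 0.0125 in shCtrl, 0.745 ± 0.00458 in shAC007128.1, SD, n = 3). Summing the counts of the pair gave a log2 fold change of 3.36 (SE 0.13). Copies of the pair on alternate haplotypes were not analysed here, so the levels, shares and ranks given are those of the primary genes. The annotated lncRNA ENSG00000285565 overlaps 920 bases (36.6%) of HSPA1B on the same strand, and it held 218 counts in shAC007128.1 replicate 1 and 0 in the other samples.

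HSPA8 (ENSG00000109971, chr11:123057489-123063230, minus strand), the constitutive HSP70 that also uncoats clathrin vesicles, had the smallest spread of the family among the shAC007128.1 samples relative to its level. Its levels were 184, 192 and 181 CPM in shCtrl and 1407, 1394 and 1422 CPM in shAC007128.1, a 7.59-fold difference (log2 fold change 2.92, SE 0.06). The SD among the shAC007128.1 samples was 14.0 CPM around a mean of 1408 CPM, and unlike HSPA1A and HSPA1B it showed no drop in replicate 3. The small nucleolar RNAs SNORD14C and SNORD14D lie within HSPA8, and a lncRNA on the opposite strand (ENSG00000288061) shares 555 of its annotated exonic bases. These 3 genes held at most 57 counts in any sample, against 12293 or more for HSPA8.

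HSPA2 and HSPA1L, the HSP70 genes best known from testis, were the lowest of the family. HSPA2 (ENSG00000126803, chr14:64535905-64546173, plus strand) had 212, 224 and 23 counts in shCtrl and 619, 613 and 436 in shAC007128.1, or 2.90, 2.79 and 0.339 CPM against 11.0, 11.2 and 7.50 CPM. The groups did not overlap, but shCtrl replicate 3 stood well below the other 2 control samples, and the log2 fold change of 2.30 carried the widest error of the called members (SE 0.66). It was 1.79 (SE 0.24) without that sample, and the call of HSPA2 was lost when shCtrl replicate 2, shAC007128.1 replicate 1 or shAC007128.1 replicate 2 was left out (log2 fold changes 2.60, 2.21 and 2.21). HSPA1L (ENSG00000204390, chr6:31809619-31815283, minus strand) had 22, 46 and 13 counts against 20, 36 and 25, its groups overlapped, and its log2 fold change was 0.43 (SE 0.52). HSPA1L is thus the neighbour that shares the promoter element of HSPA1A but stayed at a fraction of a CPM in every sample, from 0.192 to 0.655.

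The HSP110 proteins act as exchange factors for HSP70 and hold unfolded clients. HSPH1 (ENSG00000120694, chr13:31134973-31162388, minus strand), the heat-inducible HSP110, stood at 128, 128 and 119 CPM in shCtrl and at 392, 400 and 474 CPM in shAC007128.1 (3.38-fold, log2 fold change 1.76, SE 0.09). HSPA4 (ENSG00000170606, chr5:133052013-133106449, plus strand), the HSP110 gene with the most counts here, stood at 263, 270 and 262 CPM against 440, 448 and 524 CPM (1.78-fold, 0.83, SE 0.08). HSPA4L (ENSG00000164070, chr4:127781821-127840733, plus strand) stood at 40.2, 44.3 and 41.0 CPM against 59.3, 49.8 and 62.2 CPM (1.36-fold, 0.45, SE 0.11). The groups of all 3 HSP110 genes were apart, with the largest difference in HSPH1 and the smallest in HSPA4L, whose closest samples were 44.3 and 49.8 CPM. In HSPH1, HSPA4 and HSPA4L alike, shAC007128.1 replicate 3 was the highest sample, the opposite of HSPA1A and HSPA1B.

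HSPA14 and HSPA13 are the divergent members. HSPA14 (ENSG00000187522, chr10:14838306-14871741, plus strand) works on nascent chains at the ribosome with the J-domain protein DNAJC2. Its levels were 41.3, 39.2 and 38.2 CPM in shCtrl and 67.9, 77.3 and 85.3 CPM in shAC007128.1 (1.94-fold, log2 fold change 0.96, SE 0.10), and it passed the fold limit only without shAC007128.1 replicate 1 (1.04). MSANTD7 shares 318 exonic bases (12.7%) with HSPA14 on the same strand and had a log2 fold change of 0.54 (SE 0.16), so part of either count may belong to the other gene. HSPA13 (ENSG00000155304, chr21:14371115-14383484, minus strand) lacks the substrate-binding domain of other HSP70 proteins. It had the smallest difference of the family, 80.9, 82.7 and 81.7 CPM against 87.6, 93.2 and 108 CPM (0.24, SE 0.09), and after a correction for GC content its log2 fold change was -0.01 (SE 0.05).

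The make-up of the family was compared per length, as CPM per kilobase of merged annotated exons. In shCtrl the order of mean levels was HSPA4 (52.1 ± 0.823, SD, n = 3), HSPA1B (40.1 ± 1.15), HSPA8 (38.2 ± 1.10), HSPA1A (31.1 ± 0.525), HSPA13 (19.7 ± 0.217), HSPA14 (15.8 ± 0.636) and HSPH1 (14.9 ± 0.592), and HSPA4L, HSPA2 and HSPA1L lay at or below 3.87 in every sample. The ranges of HSPA1B and HSPA8 overlapped there, but within each shCtrl sample HSPA1B was the higher. The values were 41.35 against 37.9, 39.67 against 39.47 and 39.15 against 37.35 in replicates 1, 2 and 3. In shAC007128.1 the order was HSPA1B (411 ± 69.4), HSPA1A (320 ± 52.5), HSPA8 (290 ± 2.89), HSPA4 (92.7 ± 9.15), HSPH1 (50.2 ± 5.37), HSPA14 (30.7 ± 3.48) and HSPA13 (23.2 ± 2.56). The ranges of HSPA1B and HSPA1A overlapped, but HSPA1B was the higher within each sample (465.3 against 362.1, 434.9 against 337.8 and 332.8 against 261.5). HSPA1A was above HSPA8 in replicates 1 and 2 and below it in replicate 3 (261.5 against 293.1). HSPA1B stood above HSPA8 in every sample (333 or more against 293 or less). HSPA4, the first in shCtrl, thus took the fourth place in shAC007128.1 although its own level was higher. The summed level of the family was 211 to 219 per kilobase in shCtrl and 1114 to 1306 in shAC007128.1, a ratio of group means of 5.67.

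As shares of that sum, HSPA1A and HSPA1B together went from 32.9 ± 0.522% in shCtrl to 59.4 ± 5.33% in shAC007128.1, and HSPA8 from 17.7 ± 0.322% to 23.8 ± 2.20%. HSPA4 went from 24.1 ± 0.355% to 7.64 ± 1.42%, HSPA13 from 9.11 ± 0.180% to 1.91 ± 0.377%, HSPA14 from 7.32 ± 0.229% to 2.53 ± 0.495% and HSPH1 from 6.88 ± 0.151% to 4.14 ± 0.804%. The groups did not overlap for any of these shares. HSPH1 therefore took a smaller share of the family in shAC007128.1 while its level was 3.38-fold higher. The level of HSPA8 depends on the length used, since its merged exons span 4849 bases and its longest transcript 2306. With the longest transcript as length, HSPA8 stood at 80.4 ± 2.32 per kilobase in shCtrl and 610 ± 6.08 in shAC007128.1 and was first of the family in both groups, and its share was 28.9% and 38.3%.

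**Figure D3:**
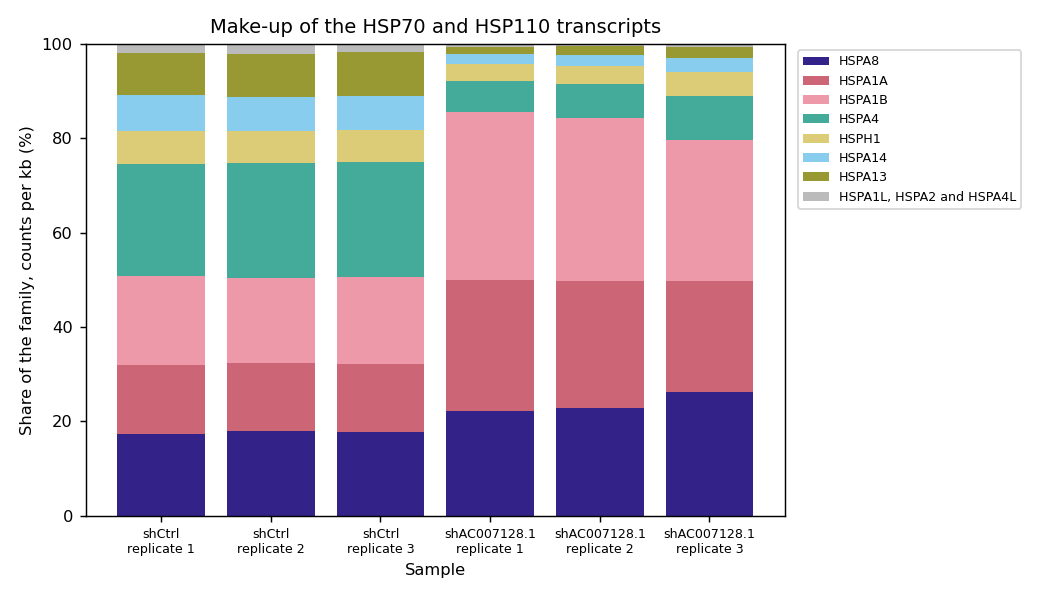
Share of each member in the summed CPM per kilobase of merged exons of the family (%), as a stacked bar for each of the 6 samples. HSPA1A and HSPA1B together fill 32.4 to 33.5% of the 3 shCtrl bars and 53.3 to 63.3% of the 3 shAC007128.1 bars, and the band of HSPA4 is narrower in every shAC007128.1 sample.

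Among all 60357 genes with a length, ranked by CPM per kilobase of merged exons, HSPA1B was at rank 887 to 921 in the shCtrl samples and 53 to 64 in the shAC007128.1 samples. HSPA1A was at rank 1236 to 1265 and 68 to 88, and HSPA8 at 922 to 1002 and 74 to 85. With the longest transcript as length, HSPA8 came first, at 554 to 596 and 51 to 60. HSPA1B was then at 1363 to 1424 and 89 to 100, and HSPA1A at 1907 to 1927 and 110 to 140. The 3 genes thus stood among the most abundant transcripts of the shAC007128.1 samples.

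Among the HSP70 relatives outside the list of members, 5 of the 6 tested had a negative log2 fold change and 1 (HSPA12B, at 0.03, SE 0.34) a positive one. Of these 6, 0 were called higher and 3 lower, where 5.57% and 10.1% of all genes tested were. Their median was -1.20, against -0.02 over all genes tested. These relatives and the lists below were also chosen with earlier results known, and many of their named genes have the smallest p. Their adjusted p values thus only place them in the whole-table test and are no fresh evidence. HSPA5 (BiP), the HSP70 of the endoplasmic reticulum, fell from 8929 ± 147 to 891 ± 40.9 CPM (SD, n = 3), 10.0-fold lower (log2 fold change -3.33, SE 0.05, adjusted p = 4.91e-07, edgeR's quasi-likelihood test with Benjamini-Hochberg adjustment). HYOU1, the HSP110-like protein of the same compartment, fell from 775 ± 14.9 to 258 ± 31.0 CPM (-1.59, SE 0.09, adjusted p = 4.58e-05, same test). HSPA9, the mitochondrial HSP70, stood at 504 ± 8.34 and 286 ± 11.0 CPM (-0.82, SE 0.06, adjusted p = 8.30e-05, same test), below the fold limit. Per kilobase of merged exons, HSPA5 stood at 1367 ± 22.3 in shCtrl against 38.2 ± 1.10 for HSPA8, and at 136 ± 6.26 in shAC007128.1 against 290 ± 2.89, so the order of the reticular and the constitutive cytosolic HSP70 was exchanged in all 3 samples, with the longest transcript as length too.

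HSPA6, a strictly heat-inducible cytosolic HSP70 that the list of members does not hold, was the third relative called lower, and it is named because of its value. It had 57, 111 and 96 counts in shCtrl and 14, 16 and 15 in shAC007128.1 (1.19 ± 0.357 against 0.266 ± 0.0223 CPM), a log2 fold change of -2.16 (SE 0.36, adjusted p = 0.00278, edgeR's quasi-likelihood test with Benjamini-Hochberg adjustment). The 2 inducible genes HSPA1A and HSPA1B and the inducible gene HSPA6 therefore lay on opposite sides of shCtrl.

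Exchange factors and proteins that bind the HSP70 tail set how long a client is held and where it goes. Of 9 tested, 2 were called higher (BAG1 and BAG3) and 0 lower, where 5.57% and 10.1% of all genes tested were. The median log2 fold change was 0.43, with 7 positive and 2 negative values. BAG3, an exchange factor of stressed cells that routes clients to autophagy, rose from 114 ± 6.21 to 259 ± 22.2 CPM (log2 fold change 1.19, SE 0.09, adjusted p = 8.82e-05, edgeR's quasi-likelihood test with Benjamini-Hochberg adjustment). BAG1, named after its values were seen, had a log2 fold change of 1.22 (SE 0.27, adjusted p = 0.0106, same test) and was below the fold limit without shAC007128.1 replicate 1. STIP1 (HOP), which joins HSP70 to HSP90, stood at 187 ± 6.85 and 315 ± 25.9 CPM (0.75, SE 0.08, adjusted p = 0.000387, same test), and ST13 (HIP) at 167 ± 6.23 and 224 ± 12.7 CPM (0.43, SE 0.07, adjusted p = 0.00289, same test), both below the fold limit. STUB1, named for its value, went the other way, from 82.6 ± 8.07 to 49.6 ± 8.83 CPM (-0.74, SE 0.15, adjusted p = 0.0063, same test), also short of the fold limit.

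Of the 11 J-domain partners of the cytosol, 10 were tested. Of these, 3 were called higher and 0 lower, where 5.57% and 10.1% of all genes tested were. The median log2 fold change was 0.59, with 9 positive values and 1 negative. DNAJA1, a farnesylated partner of HSPA8, rose from 39.7 ± 0.600 to 182 ± 4.50 CPM (log2 fold change 2.19, SE 0.07, adjusted p = 1.02e-05, edgeR's quasi-likelihood test with Benjamini-Hochberg adjustment). DNAJB1 (HSP40), a partner of HSP70 in taking apart protein aggregates, rose from 129 ± 19.9 to 413 ± 8.14 CPM (1.68, SE 0.11, adjusted p = 6.92e-05, same test). DNAJB4 rose from 11.6 ± 2.33 to 37.0 ± 1.67 CPM (1.67, SE 0.16, adjusted p = 0.000256, same test). DNAJB2, named for its value, went the other way, from 44.1 ± 4.67 to 27.2 ± 7.34 CPM (-0.70, SE 0.20, adjusted p = 0.0267, same test), short of the fold limit. The 3 called partners were thus 3.19- to 4.57-fold higher, beside 3.38-fold for HSPH1 and 7.59-fold for HSPA8.

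HSF1, the factor that switches on the heat shock response and acts mainly through its own activation rather than its transcript level, stood at 71.0 ± 7.74 and 105 ± 4.22 CPM (log2 fold change 0.56, SE 0.10, adjusted p = 0.00336, edgeR's quasi-likelihood test with Benjamini-Hochberg adjustment). HSF2 had a log2 fold change of 0.67 (SE 0.14, adjusted p = 0.00793) and HSF4 of -0.55 (SE 0.14, adjusted p = 0.0172) in the same test. None of the 4 genes of this list, which also holds HSBP1, passed the fold limit, and the activity of HSF1 was not measured.

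Of 10 other genes of the heat shock response, 6 were called higher and 0 lower, where 5.57% and 10.1% of all genes tested were. The median log2 fold change was 1.19. HSP90AA1, the inducible HSP90 that receives clients from HSP70, rose from 472 ± 8.01 to 2658 ± 220 CPM (log2 fold change 2.49, SE 0.07, adjusted p = 8.39e-06, edgeR's quasi-likelihood test with Benjamini-Hochberg adjustment). HSPD1, the mitochondrial HSP60, rose from 311 ± 3.81 to 719 ± 22.5 CPM (1.21, SE 0.06, adjusted p = 2.24e-05, same test). HSP90AB1, the constitutive HSP90, stood at 1149 ± 27.4 and 2277 ± 87.9 CPM (0.99, SE 0.05, adjusted p = 3.09e-05, same test), just below the fold limit. Of 8 reference genes often used to scale expression, 0 were called, with 4 positive and 4 negative log2 fold changes and a median of 0.12, and the 3 with the smallest p were GAPDH (0.69, SE 0.05), HPRT1 (0.73, SE 0.08) and PPIA (0.78, SE 0.10), with adjusted p = 0.000106, 0.000388 and 0.000991 in the same test. The log2 fold changes of HSPA1L (with its wide error), HSPA4L and HSPA13 were smaller than those of these 3 reference genes, and that of HSPA4 was close to that of PPIA.

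**Figure D4:**
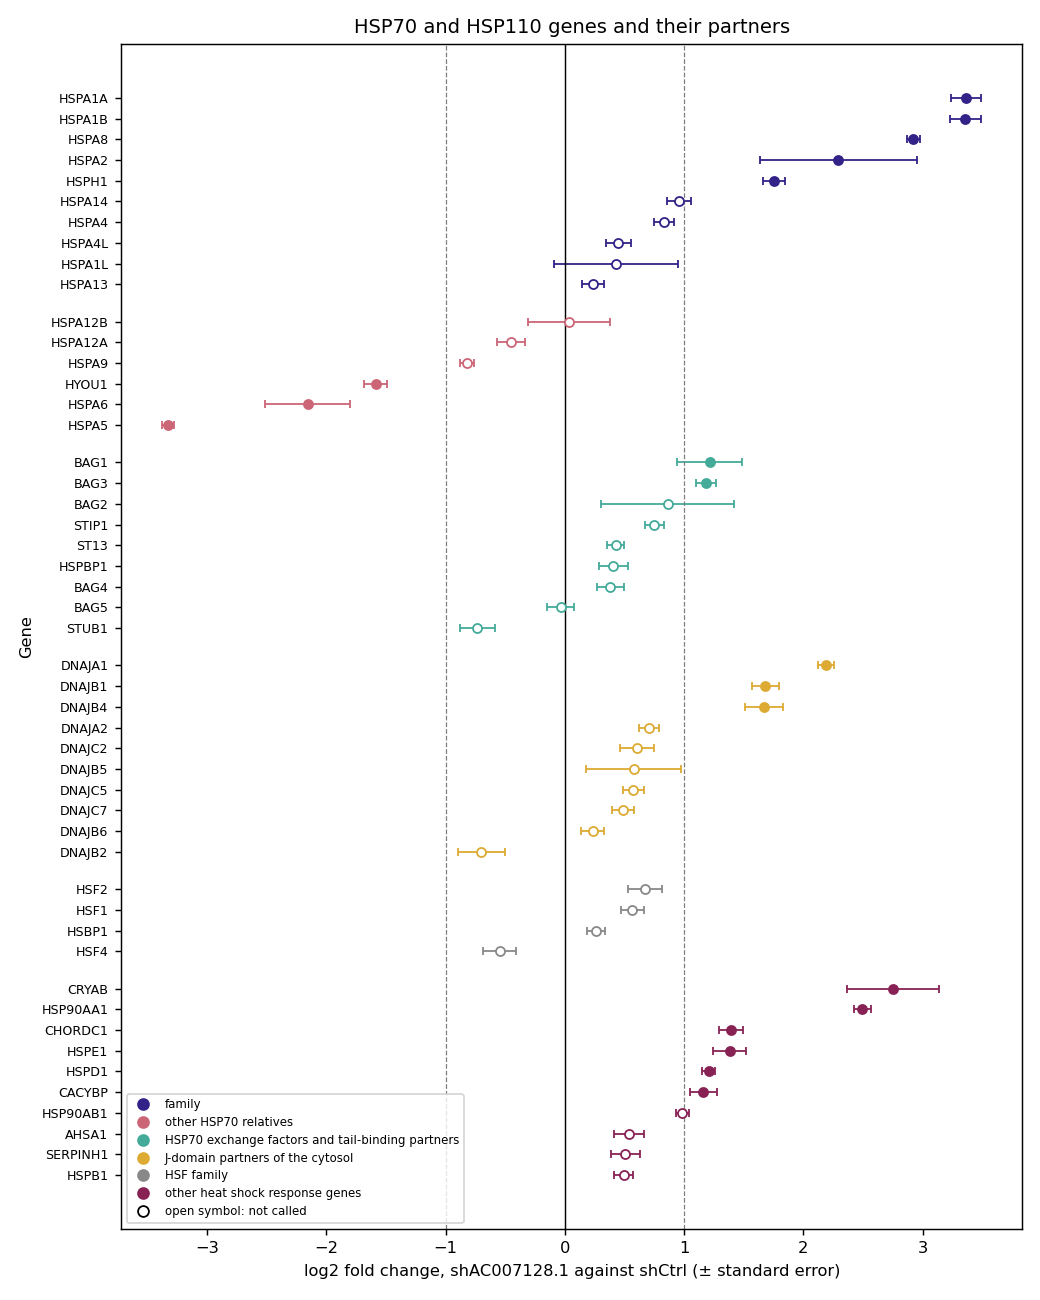
log2 fold change of shAC007128.1 against shCtrl with its standard error for the family and 5 lists of partners and relatives, where filled symbols are called and dashed lines mark the fold limit. The 10 members lie from 0.24 to 3.37, whereas HSPA5, HSPA6 and HYOU1 lie at -3.33, -2.16 and -1.59.

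The spread among the shAC007128.1 samples followed base composition. Across the 19156 tested genes with an annotated GC content (of 19254), the deviation of a gene from its group mean had a Spearman correlation with GC content of 0.30, 0.25 and -0.42 in shAC007128.1 replicates 1, 2 and 3 and of -0.03 to 0.01 in the shCtrl samples, given as a description because genes of 1 library are not independent. Among the 8 members with ample counts, HSPA1A and HSPA1B, the richest in GC (59.8% and 58.8%), were 0.28 and 0.29 below their group mean in replicate 3 on the log2 CPM scale, whereas HSPA13, HSPA4L, HSPH1, HSPA14 and HSPA4, with 34.5% to 42.4% GC, were 0.13 to 0.17 above it, and HSPA8, at 45.7%, was 0.01 above it. The low HSPA2, at 43.9% GC, was 0.37 below its group mean in that replicate and did not follow this order. Without shAC007128.1 replicate 3, HSPA1A had a log2 fold change of 3.48 (SE 0.04). With a correction for GC content, chosen after seeing the data, HSPA1A was at 3.56, HSPA1B at 3.53, HSPH1 at 1.60 and HSPA4L at 0.24.

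**Figure D5:**
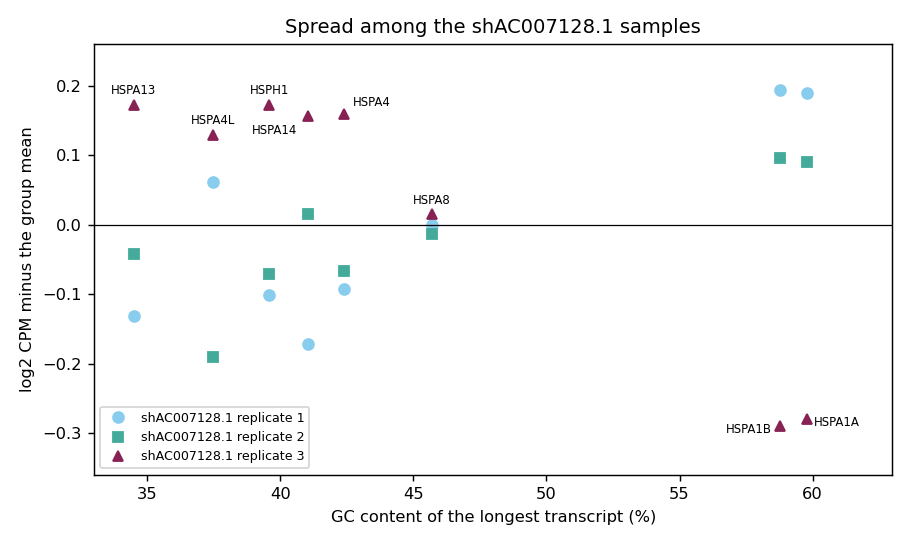
Deviation of log2 CPM from the shAC007128.1 group mean against the GC content of the longest transcript (%) for 8 members, with a symbol for each replicate. HSPA1L and HSPA2 are left out for their low counts. In replicate 3 the members with 34.5% to 42.4% GC lie above 0, and HSPA1A and HSPA1B lie near -0.28 and -0.29.

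Genes whose pattern over the 6 samples was most like that of the called members were sought among the 6642 genes whose mean log2 CPM reached 5. Among those with the largest Pearson r with the mean standardized log2 CPM of the 5 called members were GTF3C6, RFC5, RACGAP1 and CHCHD3, from 0.9983 to 0.9993, with log2 fold changes of 1.44, 1.18, 1.38 and 0.81. The value exceeded 0.99 in 185 genes, and the 6 points it rests on fall into 2 groups of libraries.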

How the data were processed

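RNA of 3 shCtrl and 3 shAC007128.1 samples of KYSE150 was sequenced. After filtering, the authors aligned reads to hg38 with TopHat, and they deposited estimated counts for each gene as whole numbers that are not normalized. The submitters' processing notes name CASAVA 1.8 and TopHat2 2.0.6, another TopHat version than the paper, and list the mouse build mm10 beside GRCh38. The program that counted the reads and its use of strand are not given in the sources used here. Multiples of 4 were in excess among low counts (in shCtrl replicate 1, 1355, 675 and 411 genes had 4, 8 and 12 counts, against 761, 359 and 226 with 3, 7 and 11 and 993, 478 and 327 with 5, 9 and 13), so counts divided by 4 were an alternative. Samples were mapped by title and description, and 0 sample columns were left unmapped.

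Of 67140 identifiers, 60357 were found in GENCODE v44 (hg38). After edgeR's filterByExpr, 47886 genes were left out, TMM set the scaling, and glmQLFit and glmQLFTest of edgeR 4.0.16 (R 4.3.3) gave the fits and tests. The steps were tested on simulated data. DESeq2 1.42.0, limma-voom (limma 3.58.1), other scalings and filters, a replicate block, each sample left out, no fold limit, and the 20 genes with the most counts left out were alternatives, and a correction for GC content was added after seeing the data. The smallest detectable level, 3 counts, covers counting error only. Promoter windows are RefSeq's (GRCh38.p14). Protein sequences were not analysed here.

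The members and lists were chosen with earlier results of these data known. Named are all members, AC007128.1, the 3 genes with the smallest p in each list, BAG3, DNAJB1, HSP90AA1, HSF1 and the 5 genes most like the called members in pattern. Some of these genes are left out here. Any other gene is said to be named for its value or its overlap.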

Additional observations from a re-analysis of the deposited data

How the results depend on the processing

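Of 470 alternative values, 440 stayed within set limits of the reported value and 30 moved. The limit was 1 SD for log2 fold changes of members and for shares, and 1.5 times for counts of genes. For AC007128.1 it was the same sign and the same side of the adjusted p limit. Many of the 440 are counts of 0 that stayed 0. The members called higher were 5 under DESeq2, limma-voom and the replicate block and 4 to 5 with 1 sample left out, where only HSPA2 lost its call and only HSPA14 gained one. The exchange factors called higher were 1 to 2 with 1 sample left out. Without a fold limit, 4041 of the 19254 genes tested were called higher and 3820 lower. Of 10 members 8 were higher, and of 6 other HSP70 relatives 5 were lower. Of 9 exchange factors 6 were higher and 1 lower, and of 10 J-domain partners tested 7 were higher and 1 lower. Of 4 genes of the HSF list 3 were higher and 1 lower. All 10 other heat shock genes were higher, and of 8 reference genes 4 were higher and 1 lower. This follows from dropping the limit. The shares depended on length: with the longest transcript and with no length, HSPA8 took 28.9% and 20.3% of the family in shCtrl and 38.3% and 32.4% in shAC007128.1, and HSPA1A with HSPA1B took 25.6% and 19.2%, and 45.7% and 41.4%. With 3 units in place of 2, 1 member held the promoter element. The GC correction took HSPA13 to -0.01, the only change of sign among the members. HSPA5 was not tested when the 20 genes with the most counts were left out.

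Same-numbered samples of the groups did not deviate together (correlations 0.03, -0.03 and -0.03), which gave no sign that the numbers pair the samples. It cannot exclude a pairing, since the shAC007128.1 deviations followed GC content and those of shCtrl did not. The replicate block left 977 genes higher and 1692 lower, against 1073 and 1945, and AC007128.1 had a log2 fold change of -0.82 (edgeR's adjusted p = 0.363). Its range with 1 sample left out was -1.29 to -0.51. The counts of HSPA1L, 13 to 46 in a sample, limit what its overlap can show, and those of AC007128.1, 15 to 69, limit the check of the knockdown.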
